A study of Mus musculus with 2 samples.

Results

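The genes described here encode the insulin receptor signalling chain of the fat cell together with a pair of its inhibitors: Insr, Irs1, Irs2, Pik3r1, Pik3ca, Akt1, Akt2 and Foxo1 as the chain, and Socs3 and Grb14 as the inhibitors. They were chosen by name, with earlier results of these arrays known. Every probe set annotated with exactly 1 of these 10 gene symbols was taken. This gave 31 of the 45037 probe sets and 10 of the 18193 named genes. Of the 31 probe sets, 26 belong to the chain and 5 to the inhibitors. The samples were epididymal white adipose tissue, a visceral fat depot, from male C57BL/6 mice: 1 sample from a mouse given a high-fat diet for 7 weeks and 1 from a mouse on normal chow. Dietary challenge began at 9 weeks of age, and neither label names a genetic alteration. Each diet had 1 Affymetrix array, so the spread between animals is unknown, no test of the diet was made, and "higher" and "lower" describe these 2 samples.

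Insulin binds its receptor, a tyrosine kinase, which phosphorylates the adaptors IRS1 and IRS2. These recruit phosphoinositide 3-kinase (PI3K), a regulatory subunit joined to a catalytic subunit, and the lipid it makes brings AKT kinases to the membrane, where they promote glucose uptake, restrain lipolysis and exclude the transcription factor FOXO1 from the nucleus. SOCS3, induced by cytokines, and GRB14, an adaptor that binds the activated receptor, both damp the signal. In adipose tissue this pathway is known for controlling glucose entry and fat storage, and much of it is regulated by phosphorylation, which an RNA array does not measure.

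On the high-fat diet the chain was lower in 7 of its 8 genes by brightest probe set, beside 52.9% of all measured genes. Pik3r1, Irs2, Foxo1 and Irs1 showed the 4 largest differences, and Akt2 was the 1 gene on the higher side. In Pik3ca and Akt1, counted as lower by their brightest probe set, other probe sets were higher. Pik3r1 was 2.18-fold lower, Irs2 1.98-fold, Foxo1 1.49-fold and Irs1 1.42-fold lower. The inhibitors went in opposite directions, Socs3 being 1.49-fold lower and Grb14 1.39-fold higher. These values come from the brightest probe set of each gene. Differences are given below as log2 of the high-fat diet intensity over the chow intensity, so a negative value means lower on the high-fat diet.

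The upstream sequences of the 4 genes below are shown because Irs1, Irs2 and Pik3r1 were lower in the chain and Socs3 in the inhibitors, and because Irs1 and Irs2 share a motif there. Foxo1, also lower in the chain, is not shown. Sequences are from RefSeq (GRCm38.p6), on the strand of the gene, 5′ to 3′, and hold the 250 bases before an annotated start. RefSeq windows were held for 9 of the 10 genes, 14 windows in all, since a gene can have several starts. Irs1 lies at chr1:82291440-82291689 and Irs2 at chr8:11008930-11009179, both on the minus strand, and capitals mark CAAAACA read on either strand, the core of the insulin response sequence through which FOXO factors act.
Irs1: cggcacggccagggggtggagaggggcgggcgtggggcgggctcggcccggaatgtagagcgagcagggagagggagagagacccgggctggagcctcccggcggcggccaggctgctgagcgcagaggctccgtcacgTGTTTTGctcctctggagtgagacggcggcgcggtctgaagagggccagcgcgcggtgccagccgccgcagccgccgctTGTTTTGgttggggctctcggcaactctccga
Irs2: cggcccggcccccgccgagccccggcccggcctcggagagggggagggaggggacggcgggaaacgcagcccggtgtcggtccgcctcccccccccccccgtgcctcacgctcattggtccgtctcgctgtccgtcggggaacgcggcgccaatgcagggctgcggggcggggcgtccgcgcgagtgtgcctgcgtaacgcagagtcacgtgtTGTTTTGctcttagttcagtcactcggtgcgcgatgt
Socs3 lies at chr11:117969367-117969616 on the minus strand, and capitals mark TTCNNNGAA, the core of the element bound by STAT factors.
Socs3: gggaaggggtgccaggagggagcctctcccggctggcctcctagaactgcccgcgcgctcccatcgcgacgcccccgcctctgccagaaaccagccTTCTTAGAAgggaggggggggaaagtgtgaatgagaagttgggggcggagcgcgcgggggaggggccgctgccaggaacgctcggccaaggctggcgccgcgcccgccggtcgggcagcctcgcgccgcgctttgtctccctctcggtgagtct
Pik3r1 has a window at chr13:101768218-101768467 and another at chr13:101692631-101692880, both on the minus strand, and capitals mark CG dinucleotides.
Pik3r1 first window: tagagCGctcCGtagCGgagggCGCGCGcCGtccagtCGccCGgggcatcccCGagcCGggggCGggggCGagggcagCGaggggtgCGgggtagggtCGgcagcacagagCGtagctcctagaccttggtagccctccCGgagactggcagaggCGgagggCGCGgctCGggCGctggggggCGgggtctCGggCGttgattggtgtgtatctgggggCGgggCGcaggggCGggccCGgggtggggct
Pik3r1 second window: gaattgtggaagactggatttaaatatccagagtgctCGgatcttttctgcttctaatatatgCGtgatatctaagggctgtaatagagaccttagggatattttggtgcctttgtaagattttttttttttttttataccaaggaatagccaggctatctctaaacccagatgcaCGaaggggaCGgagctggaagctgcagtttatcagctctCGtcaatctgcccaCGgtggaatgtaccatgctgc

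In Irs1 the motif CAAAACA began 111 and 32 bases before the annotated start, and in Irs2 37 bases before it, each time as TGTTTTG on the strand of the gene. No other of the 14 windows held it. Over all 32851 RefSeq windows of this length, 5.56% held CAAAACA on either strand. GTAAACA, another sequence bound by FOXO factors, was in 1 window, at 1 of the Akt1 starts, and in 3.17% of all windows. TTCNNNGAA, which reads the same on both strands, was in 1 window of Socs3, 154 bases before the start, in 1 of Akt2, 160 bases before it, and in 7.02% of all windows. None of the motifs was in either Pik3r1 window or in the window of Foxo1. The first Pik3r1 window had 30 CG dinucleotides and a GC content of 76.4%, the second 6 and 42.4%. A match describes letters in a window and shows no binding.

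The deposited table gives 1 linear intensity per probe set and array, a brightness in arbitrary units, and intensities of different probe sets cannot be ranked against each other. They ran up to 11559.7 on the high-fat diet array and 10726.6 on the chow array. A floor for weak signal was set at the 40th percentile of each array, 27.9 on the high-fat diet and 28.6 on chow, and lower values were set to that floor ahead of the log2 step. Of the 31 member probe sets, 25 were above the floor on both arrays, 1 on the high-fat diet array only, 1 on the chow array only and 4 on neither, and each gene had at least 1 above the floor on both. Around the mean difference of their gene, single probe sets over the whole array had a pooled SD of 0.32 log2 units (5196 genes), 0.37 at mean intensities under 100, 0.29 between 100 and 400 and 0.20 from 400 up. This SD covers disagreement between probe sets of a gene and no spread between animals. As a check of the tissue label, the fat cell gene Adipoq (adiponectin) had an intensity of 8718.4 on the high-fat diet and 8372.1 on chow, and the summed intensity of 8 measured mature adipocyte markers was 51909 and 50566 in the same order of diets.

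**Figure D1:**
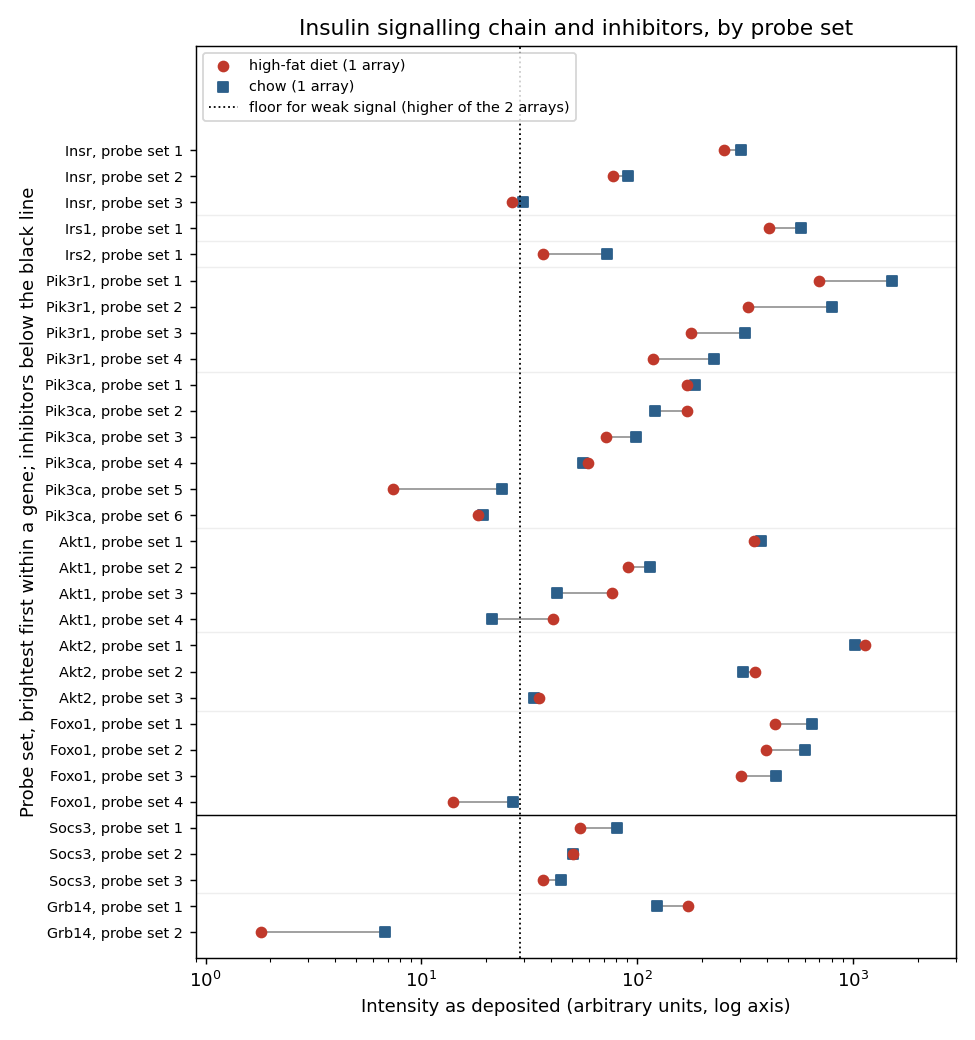
Intensity as deposited (log axis) of each of the 31 member probe sets on the high-fat diet array (red circles) and the chow array (blue squares), with the floor for weak signal as a dotted line. All 4 probe sets of Pik3r1 and the 3 of Foxo1 above the floor lie further left on the high-fat diet, while those of Pik3ca and Akt1 go both ways.

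At the head of the chain, Insr, the receptor itself, had an intensity of 254 on the high-fat diet and 304.5 on chow in its brightest probe set, a difference of -0.26. Its other probe set above the floor read 77.4 on the high-fat diet and 90.7 on chow, a difference of -0.23. A weak probe set read 26.3 on the high-fat diet, under the floor, and 29.6 on chow. All 3 pointed the same way, and both differences lay inside the pooled SD between probe sets. Igf1r encodes the receptor of insulin-like growth factor and is the closest relative of Insr in the lists. Its brightest probe set was 1.61-fold lower, at 177.7 on the high-fat diet and 286.3 on chow. All 4 of its measured probe sets were lower, with differences from -0.69 to -0.09.

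The adaptors of the receptor were both lower. Irs1 had 1 probe set, with an intensity of 407.7 on the high-fat diet and 578.8 on chow, a difference of -0.51. This was more than the pooled SD of probe sets as bright. Irs2 also had 1 probe set, at 36.7 on the high-fat diet and 72.8 on chow, a difference of -0.99, just under 2-fold. The high-fat diet value was close to the floor of 27.9, and with the floor raised to the 60th percentile the Irs2 difference was -0.31. With 1 probe set each, neither adaptor had a second reading on the array. Irs3, an adaptor of rodent fat cells, was at 147.9 on the high-fat diet and 130.9 on chow, a difference of 0.18.

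Pik3r1 encodes p85α and its shorter forms, the main regulatory subunit that docks PI3K onto the adaptors, and it had the largest difference among the members. Its 4 probe sets, from the brightest down, read 700.1, 326.6, 178 and 119.2 on the high-fat diet, against 1528, 800.6, 317.5 and 227.7 on chow. Every probe set was lower on the high-fat diet, by 2.18-, 2.45-, 1.78- and 1.91-fold. Their mean difference was -1.05 with an SD of 0.20 over the 4 probe sets, which are readings of 1 gene in the same samples and not replicates. All but the brightest are annotated to the same source sequence. The smallest of the 4 differences, -0.83, was 1.78-fold, so the call at 2-fold depends on the probe set while the direction did not. Among the 14066 measured genes Pik3r1 ranked 118th from the lowest difference. Of the 2067 genes with at least 3 probe sets that passed the floor on each array, 18% had all of them lower on the high-fat diet and 0.339%, or 7 genes with Pik3r1 among them, had all of them 1.5-fold or more lower. Of the 2007 genes with a mean intensity of 400 or more, 0.349% were 2-fold or more lower, again 7 genes with Pik3r1 among them.

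The other subunits of PI3K differed less. Pik3ca, the catalytic subunit p110α, had 4 probe sets above the floor, which read 171.6, 170.7, 71.9 and 59.6 on the high-fat diet, against 186.4, 121.9, 99 and 56.1 on chow. Their differences were -0.12, 0.49, -0.46 and 0.09, so 2 were lower and 2 higher and no direction can be given for the gene. Another 2 probe sets were under the floor on both arrays. Of its relatives, Pik3r2, which encodes the regulatory subunit p85β, differed by -0.32 (164.9 on the high-fat diet and 205.5 on chow), and Pik3r3, which encodes p55γ, by 0.22 (109.6 and 94.1 in the same order). The catalytic subunit genes Pik3cb and Pik3cd differed by -0.32 and 0.17.

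The AKT kinases, which carry the signal on to glucose transport and to FOXO factors, were close on the 2 arrays in their brightest probe sets. Akt2, the isoform most tied to insulin action in fat, read 1141.4, 354.4 and 35.1 on the high-fat diet, against 1030.1, 311.1 and 33.4 on chow. All 3 differences were small and positive, from 0.07 to 0.19, within the pooled SD between probe sets. Akt1 read 349.9, 90.8 and 76.5 on the high-fat diet, against 376.7, 115.3 and 42.5 on chow. The first 2 were lower, by -0.11 and -0.34, and the third was higher, by 0.85. A weak Akt1 probe set, at 40.7 on the high-fat diet and under the floor at 21.2 on chow, was at least 1.42-fold higher, so the probe sets of Akt1 disagreed in direction.

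Foxo1, the transcription factor that AKT holds out of the nucleus and that insulin thereby restrains, was lower in every probe set above the floor. These read 436.5, 396.2 and 305.3 on the high-fat diet, against 651.1, 602.6 and 442.4 on chow, and a further probe set was under the floor on both arrays. The differences were -0.58, -0.60 and -0.54, with an SD of 0.035 over the 3 probe sets of this gene. These 3 probe sets are annotated to the same source sequence and are not replicates. Each difference was 1.45- to 1.52-fold, and Foxo1 ranked 927th from the lowest of the 14066 genes. Its relative Foxo3 differed by -0.55 (160 on the high-fat diet and 234.1 on chow), and Foxo4 by 0.07, a sign that turned when intensities were centred on reference genes.

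Of the inhibitors, Socs3 was lower in its brightest probe set and Grb14 higher. Socs3 read 54.3, 50.5 and 36.5 on the high-fat diet, against 80.8, 50.7 and 44.5 on chow. The differences were -0.57, -0.01 and -0.29, none of them positive, and the size depended on the probe set. The second of them was 0.02 with quantile normalization, lowess centring or median centring, so its sign depended on the scaling. Grb14 read 172.9 on the high-fat diet and 124.3 on chow in its 1 probe set above the floor, a difference of 0.48. Its other probe set was at 1.8 on the high-fat diet and 6.8 on chow, far under the floor on both. The difference of Grb14 was larger than the pooled SD of 0.29 between probe sets as bright, and it ranked 1249th from the highest of the 14066 genes.

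**Figure D2:**
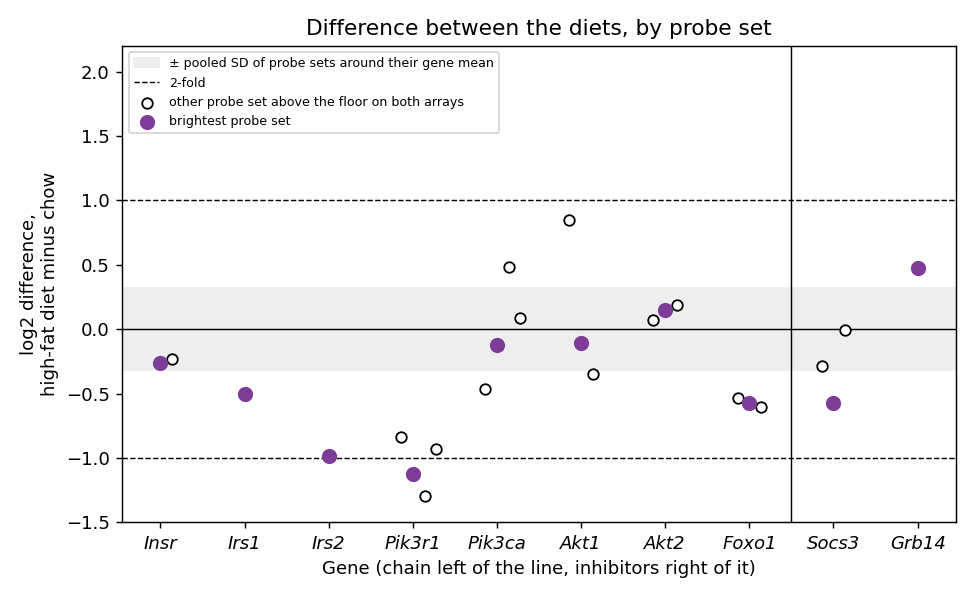
Log2 difference, high-fat diet minus chow, of every member probe set that passed the floor on each array (filled: the brightest of its gene, open: others), with the pooled SD of 0.32 as a grey band and 2-fold as dashed lines. Pik3r1 and Foxo1 lie below the band in every probe set drawn, Akt2 lies inside it, and Pik3ca and Akt1 spread across 0.

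Counted over genes by the brightest probe set, the chain had 1 of 8 members 2-fold or more lower and 0 that far higher. Over all measured genes 1.35% were 2-fold or more lower and 1.17% 2-fold or more higher. At 1.5-fold, 2 of 8 chain genes were lower and 0 higher, beside 6.4% of all genes lower and 5.82% higher. By any amount 7 of 8 were lower, beside 52.9% of all genes. The median difference of the chain was -0.38, beside -0.02 for all measured genes, and -0.26 without Pik3r1. Over probe sets that passed the floor on each array, 15 of 21 in the chain and 3 of 4 of the inhibitors were lower, beside 52.7% of all such probe sets. Probe sets of a gene are not independent of each other, and the members were chosen with earlier results of these arrays known, so the counts are a description.

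**Figure D3:**
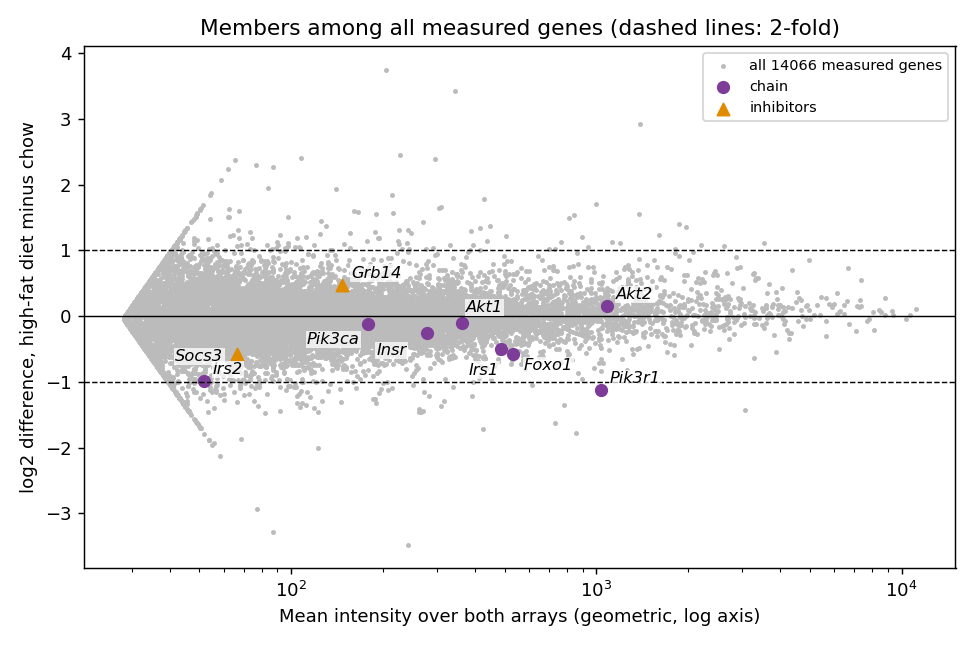
Log2 difference, high-fat diet minus chow (vertical), against mean intensity over both arrays (horizontal, log axis) for 14066 measured genes in grey, with the chain as purple circles and the inhibitors as orange triangles. Pik3r1 lies below the 2-fold line at a high intensity, where 7 of 2007 genes do, and Irs2 lies near that line at a low intensity, where the grey points spread more widely.

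Set beside their relatives, Pik3r1, Irs2, Foxo1 and Socs3 each had the lowest difference of their family among the relatives listed, by brightest probe set. Irs2, at -0.31 with the floor at the 60th percentile, was then above Irs1, and Socs3, at -0.29 with the mean of all probe sets, was then above Socs1. In the IRS adaptors Irs2 (-0.99) and Irs1 (-0.51) lay below Irs3 (0.18). In the PI3K regulatory subunits Pik3r1 (-1.13) lay below Pik3r2 (-0.32) and Pik3r3 (0.22). In the GRB7 family Grb14 (0.48) was above Grb7 (0.16) and Grb10 (-0.15), another receptor-binding inhibitor, at 419 on the high-fat diet and 464.4 on chow. In the SOCS family, which includes cytokine-induced inhibitors, Socs3 (-0.57) and Socs1 (-0.48) were lowest. They were followed by Cish (-0.37), Socs2 (-0.16), Socs7 (-0.08) and Socs6 (0.03, negative when centred on reference genes). Foxo1 and Foxo3 were nearly equal by brightest probe set, but the other measured probe set of Foxo3 differed by -0.26. The difference between family members was not tested, since each diet had 1 array.

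**Figure D4:**
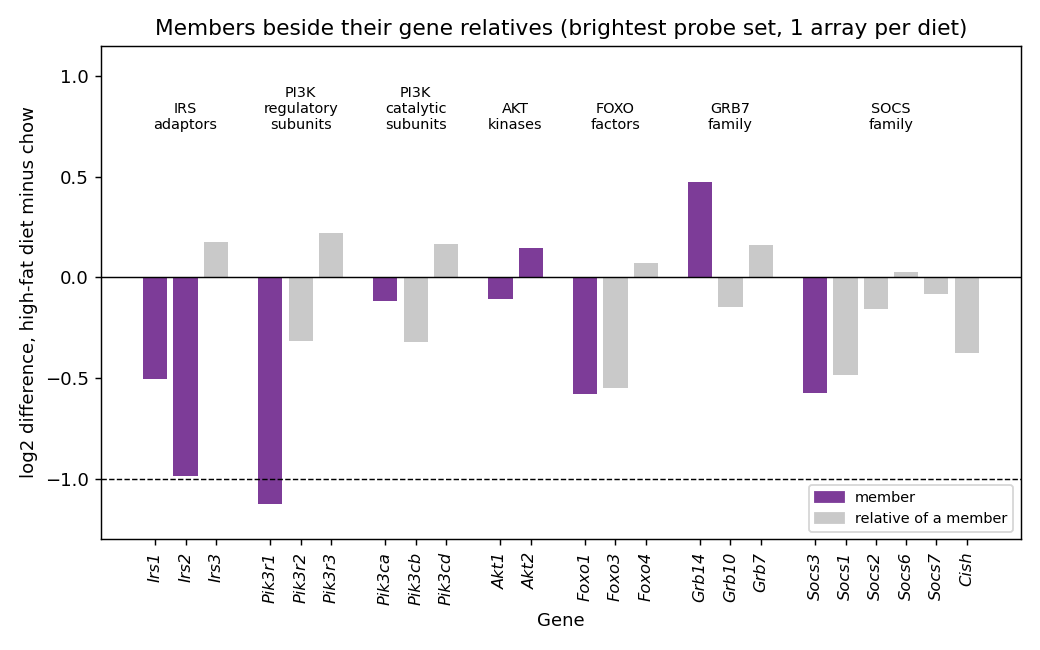
Log2 difference, high-fat diet minus chow, of the brightest probe set of 9 members (purple bars; Insr is not drawn) and of their relatives (grey bars), grouped by family, with 2-fold lower as a dashed line. Pik3r1 and Irs2 reach -1.13 and -0.99, while no relative drawn goes below -0.55. Igf1r, the relative of Insr, was at -0.69 and is not drawn.

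Other genes of the pathway were followed in 4 lists, each read against the shares of all genes above. Among 19 measured further genes of the chain, 10 were lower and 9 higher, with a median of -0.04, and Igf1r was the 1 gene past 1.5-fold. Sh2b2, an adaptor of the insulin receptor also called APS, differed by -0.48, at 159.3 on the high-fat diet and 222.8 on chow. Among 20 measured further inhibitors, 10 were lower and 10 higher, with a median of -0.02. Dok1, a docking protein that attenuates tyrosine kinase signals, was the 1 gene past 1.5-fold, 1.60-fold higher at 124.4 on the high-fat diet and 77.7 on chow. Inppl1, the lipid phosphatase SHIP2, which removes the product of PI3K, was 1.45-fold higher at 402 on the high-fat diet and 277.5 on chow. Mapk8, the stress kinase JNK1, differed by -0.43 in its brightest probe set, but 2 of its 5 probe sets were higher, by up to 0.15. Ptpn1, the phosphatase PTP1B that acts on the receptor, differed by -0.20, at 317.5 on the high-fat diet and 364.7 on chow.

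Among 22 measured targets of AKT and genes of glucose uptake, 12 were lower and 10 higher, with a median of -0.02, and 4 were 1.5-fold or more lower against 0 higher. Slc2a4, the insulin-regulated glucose transporter GLUT4, was lower in both probe sets, by -0.50 and -0.69, the brighter at 634 on the high-fat diet and 898.3 on chow. The SNARE genes Vamp2 and Stx4a, which act in the fusion of transporter vesicles with the membrane, were 2.13- and 1.77-fold lower, but the other probe set of Vamp2 differed by only -0.03. Hk2, a hexokinase that traps glucose, was 1.56-fold lower in its 1 probe set, at 471 on the high-fat diet and 734.7 on chow. Tsc1, part of the brake on mTOR, was 1.67-fold lower in its brighter probe set and differed by 0.79 in the other, so its direction is not settled. Gsk3b, a kinase that AKT inhibits, read 362.2 on the high-fat diet and 365.4 on chow.

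Among 12 measured genes known as targets of FOXO factors, 8 were higher and 4 lower, with a median of 0.06, and 5 were 1.5-fold or more higher against 0 lower. Of the 8 counted as higher, Sesn3 and Pnpla2 differed by only 0.003 and 9.2e-05 in their brightest probe sets. Both were negative, at -0.09, when centred on reference genes. The other measured probe set of Sesn3 differed by 0.50. Pdk4, a kinase that shuts off pyruvate dehydrogenase, had 1 measured probe set. It was 3.01-fold higher, at 287 on the high-fat diet and 95.5 on chow. Bcl6, a transcriptional repressor, was 1.80-fold higher, at 265.1 on the high-fat diet and 146.9 on chow, and both of its probe sets were higher. Pck1, the enzyme of glyceroneogenesis in fat, was 1.64-fold higher, at 2241.4 on the high-fat diet and 1370.1 on chow, although 1 of its 3 probe sets differed by -0.20. Cdkn1b, a cell cycle inhibitor, was 1.55-fold higher and the stress gene Gadd45a, under the floor on chow, at least 1.69-fold higher. Each had 1 measured probe set. Fbxo32, a ubiquitin ligase, was 1.43-fold lower, and Pnpla2, the lipase ATGL, read 4720.5 on the high-fat diet and 4720.2 on chow.

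**Figure D5:**
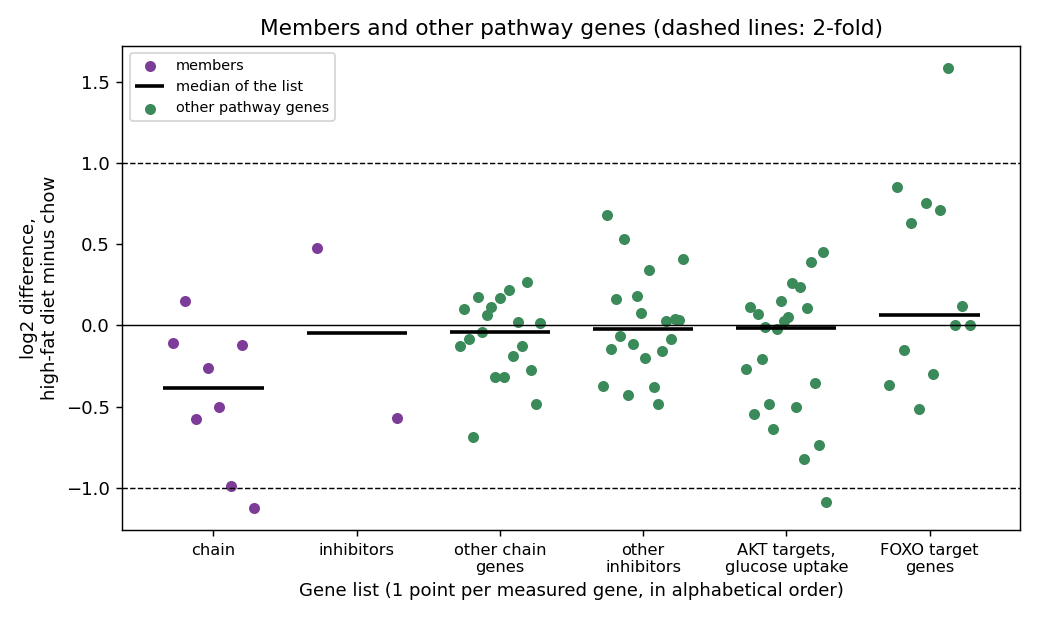
Log2 difference, high-fat diet minus chow, of each measured gene in the chain and the inhibitors (purple) and in 4 lists of other pathway genes (green), with list medians as black bars and 2-fold as dashed lines. The median of the chain is -0.38 and those of the other 4 lists lie between -0.04 and 0.06.

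A fat pad holds several cell types, and in bulk tissue fewer cells of a type and less RNA per cell cannot be told apart. Mature adipocyte markers were lower in 3 and higher in 5 of 8 cases, the largest difference being -0.49 in Pparg. Macrophage markers, which bear on cells that express Socs3 and other cytokine-response genes, were lower in 4 and higher in 4 of 8 cases, with a summed intensity of 6717.8 on the high-fat diet and 6735.8 on chow. Among them Adgre1 differed by 0.07, Cd68 by 0.22 and Cd14 by -0.64. Endothelial markers were lower in 2 of 7 cases and summed to 1949.8 and 1924.6 in the same order, with Pecam1 at 0.06 and Flt1 at -0.59, and the T and B cell markers, lower in 2 of 5 cases, to 426.5 and 378.3. Cd8a, which makes up most of that last difference, was at 0.30 in its brighter probe set and -0.56 in the other. Mesothelial markers, from the lining of the pad, were lower in 5 of 6 cases, summing to 918.3 on the high-fat diet and 1372.6 on chow, with Krt19 at -0.99. Of 3 measured smooth muscle markers 2 were lower, Myh11 by -1.07, and their sum, dominated by Acta2, was 2124 on the high-fat diet and 1986.3 on chow. Fibroblast and progenitor markers were lower in 2 of 5 cases, and 3 were 1.5-fold or more higher against 1 lower. Mfap5 was at 0.92, and Pdgfra was at -0.66 in its brighter probe set and 0.19 in the other. The 5 markers summed to 10049.7 on the high-fat diet and 9545.5 on chow. Dcn made up the largest part, at 5096.7 and 6312 in the same order. Epididymis markers, of the organ next to the pad, were measured in 3 cases, Lcn8 at 32.9 on the high-fat diet and 55.1 on chow, Spink8 at 36.6 and 38.9 in the same order, and Adam7 at 38.4 on the high-fat diet and under the floor at 13.9 on chow. Cd4, Cnn1 and Lcn5 were under the floor on both arrays, at 9.4, 8.8 and 3.5 on the high-fat diet and 10.5, 22.7 and 4.7 on chow. The part of any of these cells in the differences of the chain was not tested.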

How the data were processed

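Per the labels' protocols, total RNA was extracted with Trizol and biotinylated cRNA was hybridised to an Affymetrix array. The deposited values are 1 linear intensity per probe set, and their summary method and scaling were not given in the sources used here. Intensity medians differed by -0.03 on the log2 scale, under a limit of 0.1, so they were used as deposited. Means trimmed by 2% at each end were 99.6 on both arrays, as after scaling to a common target, which would remove an overall difference in RNA content. Having 2 arrays limits the precision.

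Of 45037 probe sets 34945 had 1 symbol in the platform annotation of 2016, 932 several and 9160 none, and 34741 matched a RefSeq gene ID. A probe set at or above the floor on either array counted as measured. A gene with several was represented by its brightest, by mean log2 intensity over both arrays, a choice blind to the difference. Members and lists were chosen with earlier results of these data known. Named genes were all members, the 4 largest differences and all at 1.5-fold or more of each pathway list, set examples (Slc2a4, Ptpn1, Grb10, Gsk3b, Adipoq, Adgre1, Cd68, Pecam1) and the largest of each cell type list. The other family relatives, Acta2, Adam7, Spink8, Pdgfra, Dcn, Fbxo32, Pnpla2, Sesn3 and the markers under the floor were added after values were seen. Python 3.11.15 with pandas 2.3.3, scipy 1.17.1 and statsmodels 0.14.6 (lowess) was used, and the calculations were tested on simulated data. Alternatives changed the floor, the scaling and the probe set of a gene.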

Additional observations from a re-analysis of the deposited data

How the results depend on the processing

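Of the 10 members, 8 kept the direction of their gene value under all 10 alternatives of floor, scaling and probe set. The exceptions were Akt1, at 0.23 with the mean of all probe sets, and Pik3ca, at 0.09 with its probe set of smallest difference. Irs1, Irs2 and Grb14 had 1 measured probe set each, so alternatives of the probe set could not change their values. For Irs1 and Grb14 the floors at the 20th and 60th percentile did not change them either. Pik3r1 ranged from -1.21 to -0.83, Foxo1 from -0.67 to -0.54, Irs1 from -0.59 to -0.48, Irs2 from -1.08 to -0.31, Socs3 from -0.66 to -0.01 and Grb14 from 0.39 to 0.51. The number of chain genes 2-fold or more lower, 1 as reported, was 0 with the probe set of smallest difference and 2 when centred on the 10 measured reference genes, an alternative chosen after seeing the data, as was leaving out Pik3r1, which gave a chain median of -0.26. The medians of the 4 other pathway lists lay on either side of 0 across alternatives. Centred on reference genes they were -0.13 for further chain genes, -0.11 for further inhibitors and -0.10 for AKT targets and glucose uptake, quantile normalization gave -0.13 for AKT targets and glucose uptake, and the mean of all probe sets gave 0.21 for FOXO targets. Over all genes, 164 were 2-fold or more higher and 190 lower. With the floor at the 20th percentile these were 608 and 727, at the 60th 90 and 66, and with 16 added to each intensity in place of a floor 247 and 268. The number of measured genes, 14066 as reported, was 16624 with the floor at the 20th percentile and 10723 at the 60th. Centring on reference genes subtracts their median difference of 0.09 from every gene, and the split was then 115 higher and 269 lower. Other causes of these shifts were not tested. No paired analysis was possible because each diet had 1 array. The Irs2 signal on the high-fat diet lies close to the floor, so its size depends on where the floor is set.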

Other observations

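Beside Pik3r1, 6 other genes had at least 3 probe sets that passed the floor on each array and were all 1.5-fold or more lower on the high-fat diet, a count looked up after the values were seen. They were C2, a complement component, 3.09-fold lower in its brightest probe set (414.8 on the high-fat diet and 1283.7 on chow), Gulp1, an engulfment adaptor, 2.08-fold lower (173.2 and 359.9 in the same order), and Zbtb16, the transcription factor PLZF, 2.06-fold lower (428.2 and 883.5). Chrdl1, an antagonist of bone morphogenetic proteins, was 1.72-fold lower, Pnn 1.69-fold and Id4, an inhibitor of DNA-binding helix-loop-helix factors, 1.52-fold lower. By the same criterion 15 genes were higher. The highest were Hmgcs1, of cholesterol synthesis, 3.26-fold (1792.7 on the high-fat diet and 550.4 on chow), Olfm1, a secreted olfactomedin, 3.16-fold (550.1 and 174.1), and Scd2, a fatty acid desaturase, 2.64-fold (3040.9 and 1150.7).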
